A study of Mus musculus with 8 samples.

Results

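The genes described here mark oligodendrocyte precursors or act along the oligodendrocyte lineage, and were measured in hippocampal RNA from mice of 2 genotypes. They are the 8 genes Pdgfra, Cspg4, Tnr, Sox6, Olig1, Olig2, Sox10 and Gpr17, chosen by name as the rows whose gene symbol equals one of these names. Each of the 8 names matched 1 row of a table of 56575 features, of which 24338 carry a symbol, and the 8 rows were members by name and not by any measured value. The libraries came from hippocampi of C57BL/6 mice aged 8 weeks, 4 labelled Slm2KO and 4 labelled WT, with no treatment named for either. The sources used here do not give how the Slm2KO allele was made, which exons it removes, or the sex of the animals. The study examined overall expression and alternative splicing in these animals, and only expression per gene is described here.

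Oligodendrocyte precursor cells are the glial progenitors that persist in the adult brain, divide, and give rise to the oligodendrocytes that wrap axons in myelin. They carry the receptor PDGFRA and the proteoglycan NG2, encoded by Cspg4, on their surface. The transcription factors OLIG1, OLIG2 and SOX10 are kept through the lineage, SOX6 is a factor of the precursor stage, and the receptor GPR17 marks cells that have left the precursor stage and are committed to differentiate. Several of these genes are also used by other cells of the brain: Cspg4 by pericytes, Pdgfra by meningeal fibroblasts, and Tnr and Sox6 by some interneurons.

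Reads counted in features came to 104020058 to 125985224 per library, recovered as whole numbers from the deposited values. SLM2, the RNA-binding protein targeted in the study, is encoded by Khdrbs3. Its normalised read count was 25932 to 33366 in the Slm2KO libraries and 19458 to 24544 in the WT libraries. The targeted gene was therefore not lower in the libraries labelled Slm2KO, and a value for the whole gene does not show which exons were lost. Directions below refer to the libraries by their labels. All 6 markers of hippocampal neurons were detected, with summed normalised read counts of 470538 to 640859 in Slm2KO and 537619 to 636301 in WT libraries. Choroid plexus transcripts set libraries apart within both labels, with Ttr highest in Slm2KO 4 at 2262369 and lowest in WT 2 at 219052. Reads of the Y-linked genes Ddx3y, Uty, Kdm5d and Eif2s3y were present in Slm2KO 3, Slm2KO 4 and WT 4, at 17979 to 19517 normalised reads, and at 0 to 3.6 in the other 5 libraries, so they are not spread evenly over labels or sample numbers. Nothing in the labels states that each library is a separate animal, so the p-values refer to the spread among these samples, which may be technical. In whole tissue, fewer cells of a type and less RNA per cell cannot be told apart.

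The stretches around the transcription starts of 4 of the genes are shown here. Tnr and Cspg4 carry the closest correlations described further on, Pdgfra is the other surface marker of the precursor, and Olig2 is a lineage factor with a level close to that of Tnr. Stretches of Olig1, Sox10, Gpr17 and Sox6 are not shown. Each runs from 250 bases before to 50 bases after the start, taken from RefSeq on GRCm38.p6, the assembly also called mm10. Capitals mark matches on either strand to CANNTG, the general E-box bound by helix-loop-helix factors such as OLIG2, and to ACAAAG or ACAATG, forms of the core bound by SOX factors.
Tnr (chr1:159523519-159523818, plus strand): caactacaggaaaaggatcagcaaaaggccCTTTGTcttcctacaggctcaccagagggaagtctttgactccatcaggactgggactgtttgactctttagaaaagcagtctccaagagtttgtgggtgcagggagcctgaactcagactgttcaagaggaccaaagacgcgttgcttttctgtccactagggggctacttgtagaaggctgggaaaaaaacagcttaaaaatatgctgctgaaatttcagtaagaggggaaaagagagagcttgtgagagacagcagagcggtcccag
Olig2 (chr16:91225300-91225599, plus strand): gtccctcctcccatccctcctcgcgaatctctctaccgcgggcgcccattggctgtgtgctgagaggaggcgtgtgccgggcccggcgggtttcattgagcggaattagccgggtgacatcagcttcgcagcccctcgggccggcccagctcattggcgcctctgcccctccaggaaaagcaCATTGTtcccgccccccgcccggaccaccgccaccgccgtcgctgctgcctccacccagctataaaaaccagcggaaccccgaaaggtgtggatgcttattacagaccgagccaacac
Pdgfra (chr5:75152001-75152300, plus strand): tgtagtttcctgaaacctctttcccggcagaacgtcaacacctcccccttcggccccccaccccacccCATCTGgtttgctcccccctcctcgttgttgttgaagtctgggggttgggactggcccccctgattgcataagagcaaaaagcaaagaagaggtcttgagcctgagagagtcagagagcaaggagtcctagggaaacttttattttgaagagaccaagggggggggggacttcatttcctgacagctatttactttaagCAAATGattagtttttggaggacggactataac
Cspg4 (chr9:56864854-56865153, plus strand): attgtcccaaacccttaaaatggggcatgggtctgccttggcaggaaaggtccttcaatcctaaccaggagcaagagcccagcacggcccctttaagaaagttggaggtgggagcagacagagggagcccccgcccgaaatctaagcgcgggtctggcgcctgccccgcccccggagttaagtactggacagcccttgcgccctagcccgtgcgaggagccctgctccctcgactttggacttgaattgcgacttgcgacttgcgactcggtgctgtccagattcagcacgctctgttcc
The Tnr stretch held 1 match to ACAAAG, a form found in 18.7% of 32851 stretches of the same length, and the Olig2 stretch held 1 match to ACAATG, found in 12.6%. The Pdgfra stretch held 2 matches to CANNTG, which occurs in 72.3% of all stretches, and the other 3 held 0. The Cspg4 window held no match to any of them. The palindromic CAGCTG form of the E-box was found in none of the 4 stretches, and the CAGATG form once, in the Pdgfra stretch. Both are special cases of CANNTG and occur in 16.3% and 17.2% of all stretches. A match describes the letters only.

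Levels per length differed widely among the 8 genes, and apart from Cspg4 and Sox6, which changed places, their means had the same order in both labels. The scale is RPKM, the reads of a gene divided by the kilobases of its exons and by the library's recovered reads over all features. Exons were those of all transcripts of the gene in GENCODE vM21, joined where they overlap. Olig1 was the most abundant. It averaged 50.2 ± 2.55 RPKM in Slm2KO and 56.3 ± 3.19 in WT libraries (SD, n = 4 each), which placed it at rank 726 of the 16826 named features with an exon length and a mean normalised read count of at least 10. Gpr17 came next with 22.0 ± 1.35 in Slm2KO and 22.0 ± 0.934 in WT libraries on the same scale. Olig2 had 12.5 ± 0.431 in Slm2KO and 13.6 ± 1.16 in WT libraries, and Tnr had 11.1 ± 0.781 and 12.3 ± 1.05 in Slm2KO and WT libraries. The lower tier began with Sox10, at 3.05 ± 0.314 in Slm2KO and 3.52 ± 0.342 in WT libraries. Pdgfra followed at 2.37 ± 0.221 in Slm2KO and 2.59 ± 0.128 in WT libraries. Cspg4 had 2.01 ± 0.256 in Slm2KO and 2.25 ± 0.324 in WT libraries, and Sox6 had 2.10 ± 0.0822 in Slm2KO and 1.96 ± 0.0809 in WT libraries. Over the 8 libraries the ranges of Olig1, Gpr17 and Olig2 did not meet, whereas Olig2 and Tnr overlapped, as did Pdgfra with Cspg4 and Cspg4 with Sox6. Tnr lay 3.56-fold above Sox10 by the means, the widest step in the order. Sox10 cleared Pdgfra by a narrow margin, with 2.77 in its lowest library and 2.73 in the highest of Pdgfra. The joined exons came to 3051 bases for Sox10 and 10024 for Pdgfra. A joined length can exceed that of the transcript in use, and the order by single transcript lengths was not tested.

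**Figure D1:**
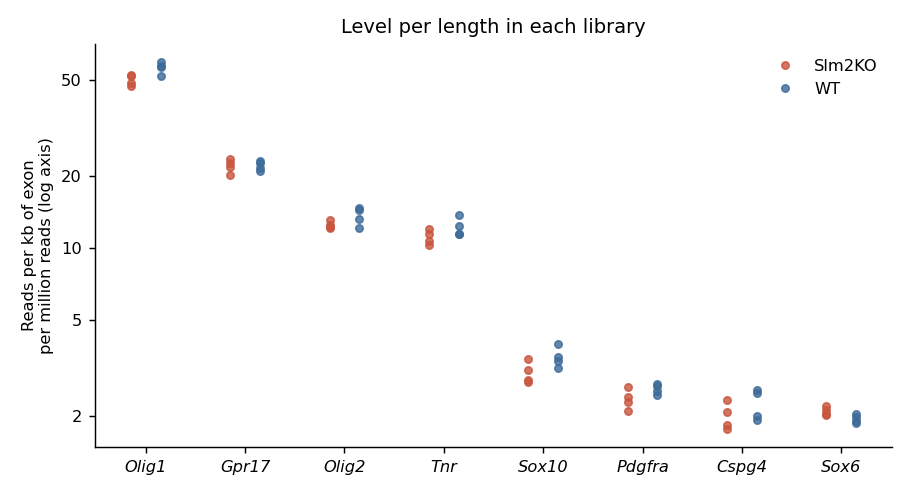
RPKM, reads scaled by joined exon length and by the library's reads counted in features (log axis), for each of the 8 genes, ordered by mean. Each point is 1 of 4 Slm2KO or 4 WT libraries. Olig1 stands near 50, Gpr17 near 20, Olig2 and Tnr overlap, and Sox10, Pdgfra, Cspg4 and Sox6 lie between 1.78 and 3.98.

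None of the 8 genes passed the threshold between the labels, and each of the 8 had a 95% interval that left out 1.5-fold, up or down. The fit covered all 25667 features with a mean normalised read count of at least 10, and all 8 genes were among them. With limma on log2(value + 1), an added 1 that shrinks changes of low genes, 0 of the 8 had a Benjamini-Hochberg adjusted p under 0.05, against 1 of all features tested (0.00390%). At an unadjusted p under 0.05 the count was 1 of the 8, Olig1, against 3.52% of all features. edgeR's quasi-likelihood test and DESeq2 on the recovered reads each called 0 of the 8 as well, against 1 and 9 of all 25667 features. Of the differences 7 were negative and 1 was positive, and with quantile normalisation 6 were negative, where 53.9% of all features were negative. The median log2 difference was -0.14 over the 8 genes and -0.01 over all features tested, with no test of the list. The groups overlapped for each of the 8 genes, against 2.50% of all features whose groups did not overlap. The interval left out 1.5-fold for 16867 of all features too, or 65.7%.

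**Figure D2:**
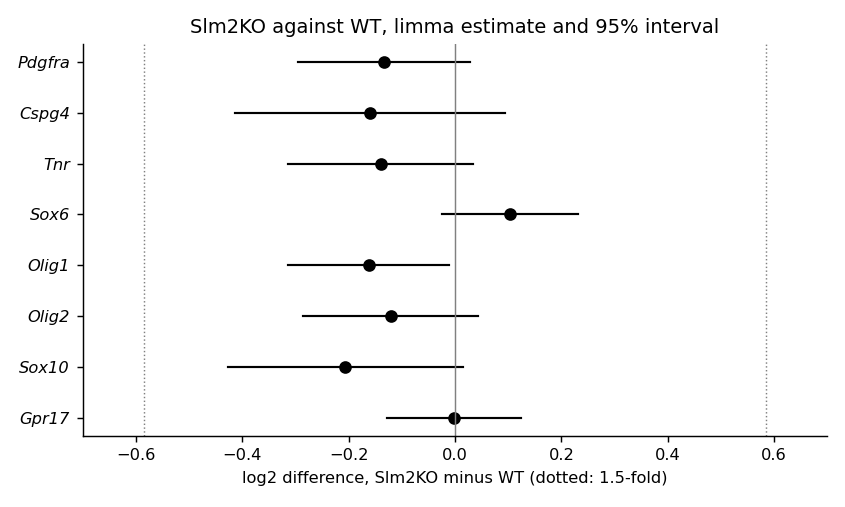
The log2 difference of each gene, Slm2KO minus WT, as the limma estimate (point) with its 95% interval (line); dotted lines mark 1.5-fold. All intervals lie inside the dotted lines, from 0.744-fold for Sox10 at the low end to 1.17-fold for Sox6 at the high end.

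Among the cell surface genes, Pdgfra (chromosome 5, 75152291 to 75198204, plus strand) encodes the receptor through which PDGF-A drives precursor proliferation. It had normalised read counts of 2799, 2465, 2706 and 2963 in Slm2KO 1 to 4, against 2880, 2786, 3146 and 3174 in WT 1 to 4. All 4 Slm2KO libraries lay below the WT median, but the ranges overlapped. On the log2 scale the fitted difference was -0.13 (SE 0.0722; 95% interval from 0.815- to 1.02-fold), with an adjusted p of 1.00 in limma and a two-sided exact permutation p of 0.143. With 70 ways to assign the labels, the smallest p that this exact test can give is 0.0286. The difference was -0.08 without Slm2KO 2, the lowest library, and -0.21 without both WT 2 and Slm2KO 4.

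Cspg4 (chromosome 9, 56865032 to 56899870, plus strand) encodes the NG2 core protein and was the most variable of the 8 genes. The libraries held 3227, 2889, 2570 and 2374 normalised reads in Slm2KO 1 to 4, against 3463, 3389, 2652 and 2848 in WT 1 to 4. The 4 libraries with sample numbers below 300, replicates 1 and 2 of each label, all lay above the 4 with numbers above 300, which held for none of the other 7 genes. Within these series the log2 difference between labels was -0.17 in the lower and -0.15 in the higher numbers, with 2 libraries per label in each. The SD within a label, 374 in Slm2KO and 399.7 in WT, exceeded the difference between their means, 2765 and 3088. Its log2 difference came to -0.16 (SE 0.114; 95% interval from 0.751- to 1.07-fold) and did not pass (adjusted p of 1.00 in limma; exact permutation p of 0.286). The difference was -0.10 with Y-linked reads as a covariate, -0.09 without Slm2KO 4, -0.10 without WT 1 and -0.04 without both WT 2 and Slm2KO 4.

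Gpr17 (chromosome 18, 31943000 to 31949636, minus strand), which encodes a G protein-coupled receptor that holds committed cells back from terminal differentiation, had the smallest coefficient of variation of the 8 over all libraries, while Sox6 had the smallest within labels. Its normalised read counts were 12155, 14183, 13260 and 13138 in Slm2KO 1 to 4, against 12706, 13346, 13771 and 12935 in WT 1 to 4. Slm2KO libraries held both the lowest and the highest value. The means were 13184 ± 830 in Slm2KO and 13189 ± 470 in WT libraries (SD, n = 4 each), and the 95% interval ran from 0.915- to 1.09-fold. The log2 difference of -0.002 turned sign with quantile normalisation and did not pass (adjusted p of 1.00 in limma; exact permutation p of 0.971). The gene lies inside the span of Lims2 on the opposite strand, and the sources used here give no strand setting. Lims2 itself held 656 normalised reads in Slm2KO and 699.6 in WT libraries on average, far fewer than Gpr17, with a log2 difference of -0.09 (limma adjusted p = 1.00).

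Tnr (chromosome 1, 159523768 to 159925292, plus strand) encodes tenascin-R, a matrix glycoprotein made by oligodendrocyte lineage cells and some neurons and found in perineuronal nets. Its normalised read counts were 17072, 18035, 16105 and 14829 in Slm2KO 1 to 4, against 16753, 20067, 16993 and 18960 in WT 1 to 4. Slm2KO 4 was the lowest library and WT 2 the highest, and these are also the libraries with the highest and the lowest Ttr. The difference of -0.14 on the log2 scale (SE 0.078; 95% interval from 0.805- to 1.02-fold) did not pass (adjusted p of 1.00 in limma; exact permutation p of 0.200). Without either of these libraries alone it was -0.09, and without both it was -0.04.

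The transcription factors were led by Olig1 (chromosome 16, 91269769 to 91271939, plus strand), a helix-loop-helix factor of precursor maturation and myelination. Its normalised read counts were 13162, 13136, 12372 and 11477 in Slm2KO 1 to 4, against 12692, 13953, 14285 and 15214 in WT 1 to 4. All 4 Slm2KO libraries were below the WT median, and WT 1 lay within the Slm2KO range. The fit gave a log2 difference of -0.16 (SE 0.0679; 95% interval from 0.805- to 0.992-fold), with a limma p of 0.038 before and 1.00 after adjustment and an exact permutation p of 0.0857. The interval is for this gene alone and is not adjusted for the number of features. In the series with lower sample numbers the log2 difference was -0.02, and in that with higher numbers it was -0.31, a difference between the series that was not tested. Tnr, Olig2 and Sox10 likewise stood at -0.06, -0.05 and -0.13 in the lower and at -0.22, -0.19 and -0.28 in the higher series. Pdgfra stood at -0.11 in the lower and -0.16 in the higher series, Gpr17 at 0.01 and -0.02, and Sox6 at 0.09 and 0.12. Each of these values compares 2 libraries per label. The sources used here do not say whether the number marks a batch, and Y-linked reads were present in 3 of the 4 libraries with higher numbers and 0 of the 4 with lower ones.

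Olig2 (chromosome 16, 91225550 to 91228675, plus strand), the neighbouring and related gene that specifies the lineage, was highest in WT 4, as was Olig1. Its lowest library was WT 1, while that of Olig1 was Slm2KO 4. The normalised read counts of Olig2 were 3537, 3862, 3650 and 3531 in Slm2KO 1 to 4, against 3491, 4211, 3845 and 4348 in WT 1 to 4. The 4 Slm2KO values lay close together and inside the WT range. A log2 difference of -0.12 (SE 0.074; 95% interval from 0.821- to 1.03-fold) resulted, which did not pass (adjusted p of 1.00 in limma; exact permutation p of 0.257). It was -0.08 without WT 4 and -0.18 without WT 1, the highest and the lowest library. Per library, the normalised read count of Olig1 was 3.44 ± 0.200 times that of Olig2 in Slm2KO and 3.54 ± 0.176 times in WT libraries (SD, n = 4 each), a ratio not corrected for length.

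Sox10 (chromosome 15, 79154909 to 79165240, minus strand), a SOX factor required for terminal differentiation and myelin gene expression, showed the largest difference of the 8. It had normalised read counts of 1101, 1232, 1017 and 947 in Slm2KO 1 to 4, against 1175, 1382, 1113 and 1283 in WT 1 to 4. Of the Slm2KO libraries 3 lay below every WT library, and Slm2KO 2 lay inside the WT range. Slm2KO differed from WT by -0.21 on the log2 scale (SE 0.0992; 95% interval from 0.744- to 1.01-fold), which did not pass (adjusted p of 1.00 in limma; exact permutation p of 0.114). Without WT 2 and Slm2KO 4, the extremes of Ttr, it was -0.09.

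Sox6 (chromosome 7, 115470873 to 116038745, minus strand), which keeps precursors from differentiating early, was the gene with a positive difference. Normalised read counts of 3455, 3543, 3708 and 3650 were found in Slm2KO 1 to 4, against 3217, 3358, 3191 and 3613 in WT 1 to 4. No Slm2KO library lay below the WT median, and WT 4 lay inside the Slm2KO range. With a log2 difference of 0.10 (SE 0.0571; 95% interval from 0.983- to 1.17-fold), it did not pass either (adjusted p of 1.00 in limma; exact permutation p of 0.0857).

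**Figure D3:**
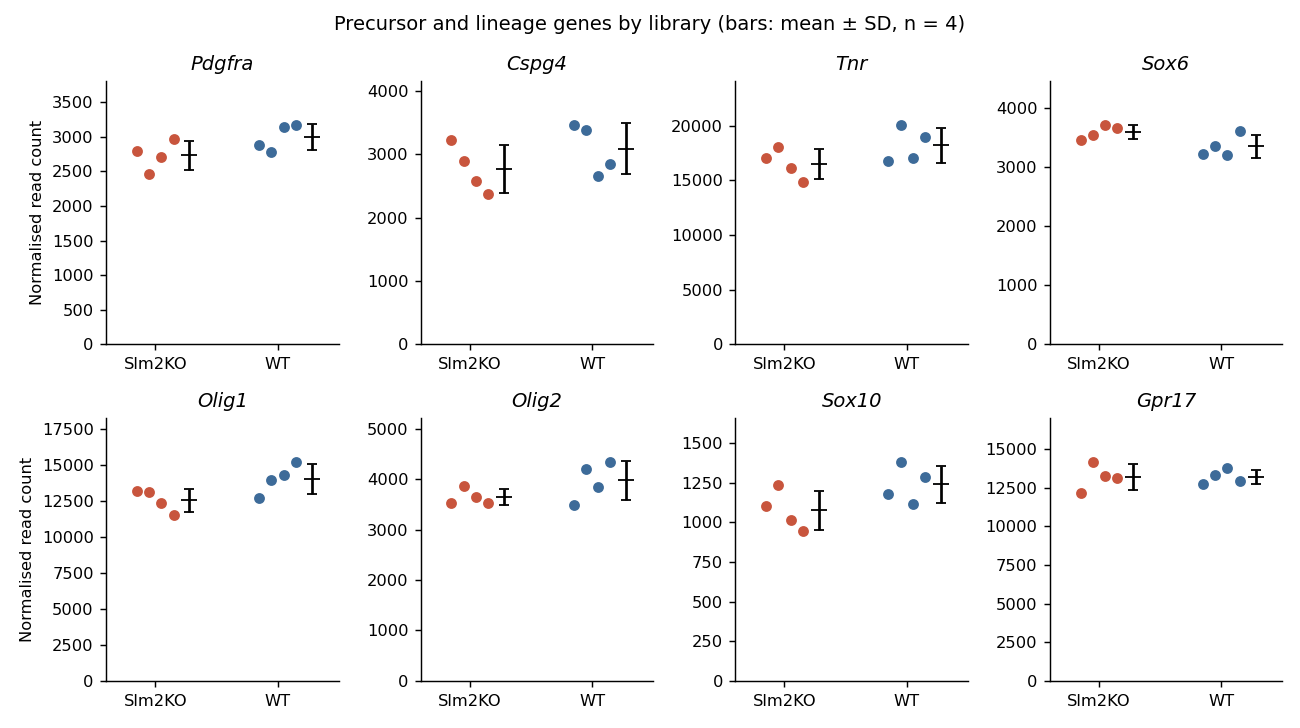
Normalised read count of each gene in the 4 Slm2KO (left) and 4 WT (right) libraries, replicates 1 to 4 from left to right, with the mean and SD (n = 4) beside the points. The ranges of the labels overlap in all 8 panels, with Gpr17 and Sox6 the tightest and Cspg4 the most spread.

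The spread between libraries was well above counting error for each gene. The coefficient of variation over the 8 libraries ran from 4.73% for Gpr17 and 5.66% for Sox6 to 12.3% for Sox10 and 13.6% for Cspg4, where counting alone would give 0.868%, 1.69%, 2.92% and 1.84% in the same order. Cspg4 varied by 13.2% within a label, more than 90.6% of the 3210 named features within 1.5-fold of its mean value. Sox6 varied by 4.65% within a label, more than 21.8% of features of like level, and Gpr17 by 5.11%, more than 32.3%. The other 5 lay between 54.3% and 72.9%.

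Across libraries the 8 genes did not move as 1 block. The 6 pairs among Tnr, Sox10, Olig1 and Olig2 had Pearson r from 0.749 to 0.971. Each was also taken without the 2 libraries farthest from the median of the first gene of the pair. The lowest were then 0.421 for Olig2 with Sox10 and 0.491 for Olig1 with Sox10. Outside these pairs, Cspg4 with Sox10 had r = 0.698, and 0.633 without Slm2KO 4 and WT 1. With each label centred on its mean, Cspg4 with Sox10 had 0.606 and Olig1 with Sox10 had 0.569. The closest of all pairs was Tnr with Sox10 (Pearson r = 0.971, exact permutation p = 0.000248, adjusted p = 0.00694; Spearman rho = 0.905, exact permutation p = 0.00456, adjusted p = 0.128; n = 8, over 28 pairs). That Pearson correlation was the only 1 of the 28 with an adjusted p under 0.05, and by Spearman's rho 0 passed. It was 0.911 without Slm2KO 4 and WT 2, the libraries farthest from the median of Tnr and also the extremes of Ttr, 0.962 with each label centred on its mean and 0.970 with each series of sample numbers centred on its mean (0.930 in the lower and 0.994 in the higher series, of 4 libraries each). Olig1 and Olig2 had a lower r (Pearson r = 0.818, exact permutation p = 0.0127, adjusted p = 0.118; Spearman rho = 0.738, exact permutation p = 0.0458, adjusted p = 0.321; r = 0.680 without the 2 libraries farthest from the median, Slm2KO 4 and WT 4), and the pair did not pass adjustment; with each number series centred r was 0.822. The pair of surface markers for the precursor, Pdgfra and Cspg4, had r = -0.195 (exact permutation p = 0.644, adjusted p = 0.902; rho = -0.214, exact permutation p = 0.619, adjusted p = 0.867; r = -0.329 without Slm2KO 2 and WT 4). This value did not hold within the series of sample numbers: r was 0.733 with each series centred on its mean, 0.959 in the lower and 0.507 in the higher series. A series of 4 libraries is too small for a test of its own. Gpr17 had no pair with r above 0.339 over the 8 libraries, and that pair, with Olig2, had 0.870 without WT 2 and WT 4. All values share the same library scaling factors, and a scaling error moves all genes of a library together.

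**Figure D4:**
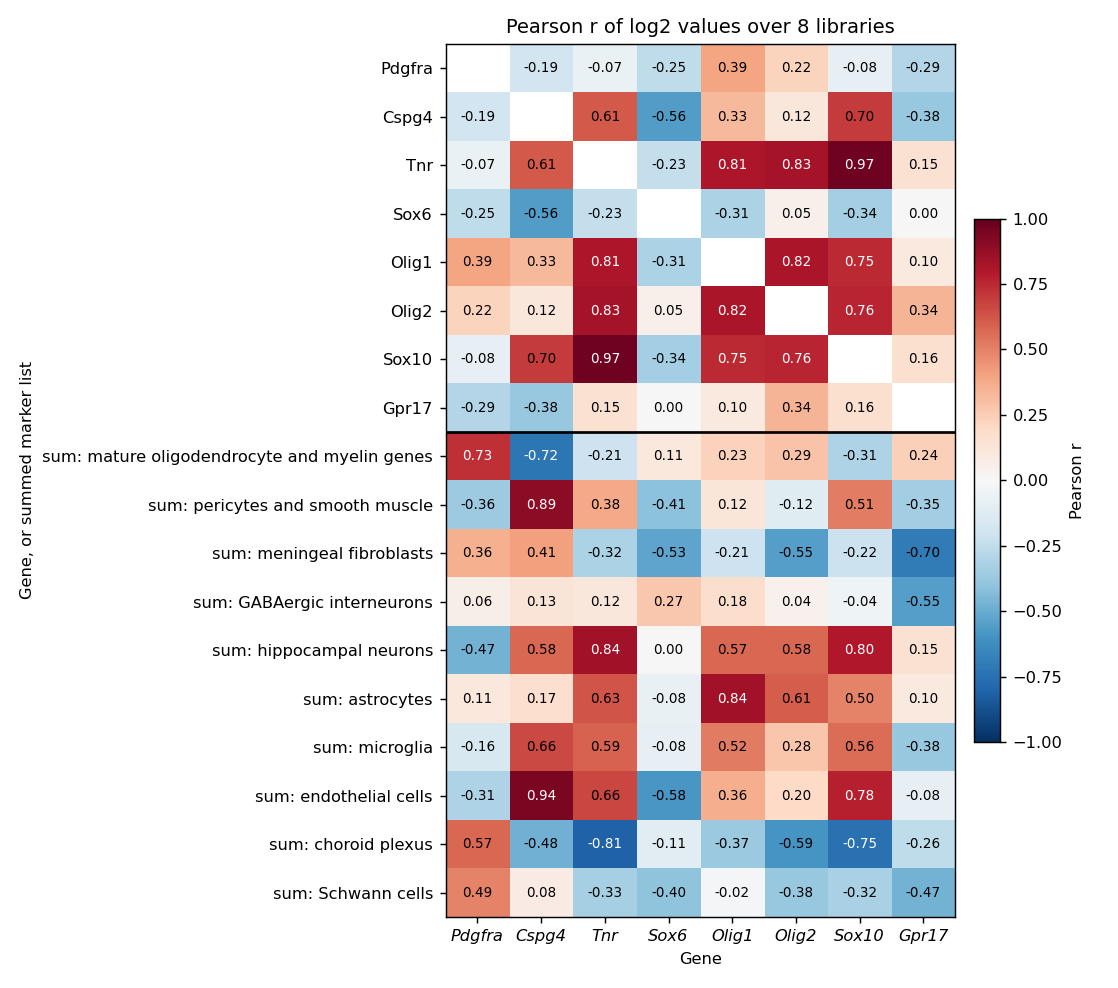
Pearson r over the 8 libraries between log2 values of the 8 genes (above the line) and between each gene and the log2 summed level of a marker list (below it). Tnr, Olig1, Olig2 and Sox10 have pairwise values of 0.75 to 0.97 over all 8 libraries, while Cspg4 stands highest with endothelial (0.94) and mural (0.89) markers.

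Over the 8 libraries Cspg4 had the highest r of the 8 genes with the vascular markers. With the summed level of 6 endothelial markers its Pearson r was 0.942 (exact permutation p = 0.000694, adjusted p = 0.0556; Spearman rho = 0.976, exact permutation p = 0.000397, adjusted p = 0.0317; n = 8, over 80 relations of a gene with a marker list). It was 0.869 without Slm2KO 4 and WT 1, the libraries farthest from the median of the endothelial sum. The endothelial sum, like Cspg4, was higher in all 4 libraries with lower sample numbers than in the other 4, and with each series centred r was 0.803, from 0.623 in the lower to 0.976 in the higher series. Other genes of the 8 were near it there: with the series centred Sox10 had 0.744, Olig1 0.675 and Tnr 0.627 with the endothelial sum, and in the higher series Tnr had 0.950, Olig1 0.945, Sox10 0.918 and Olig2 0.862. Whether Cspg4 differs in this from the others was not tested. With 10 pericyte and smooth muscle markers r was 0.891 (exact permutation p = 0.0034, adjusted p = 0.136; rho = 0.905, exact permutation p = 0.00456, adjusted p = 0.183; r = 0.770 without the same libraries; 0.624 with the series centred). With 16 myelin and mature oligodendrocyte genes r was -0.719 (exact permutation p = 0.0515, adjusted p = 0.405; rho = -0.786, exact permutation p = 0.0279, adjusted p = 0.368; r = -0.638 without WT 1 and WT 3), and this relation did not hold within the number series, where r was 0.251 in the lower and 0.160 in the higher. With each label centred on its mean the myelin relation had r = -0.928. The myelin sum was higher in all 4 libraries with higher sample numbers than in the other 4. The endothelial sum was 7203 to 10970 in Slm2KO and 9028 to 12881 in WT libraries, with all 6 markers negative and 0 called. The pericyte and smooth muscle sum was 31581 to 40910 in Slm2KO and 33237 to 46551 in WT libraries, with 9 of 10 negative and 0 called. The part of vascular cells in the Cspg4 difference was not tested.

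**Figure D5:**
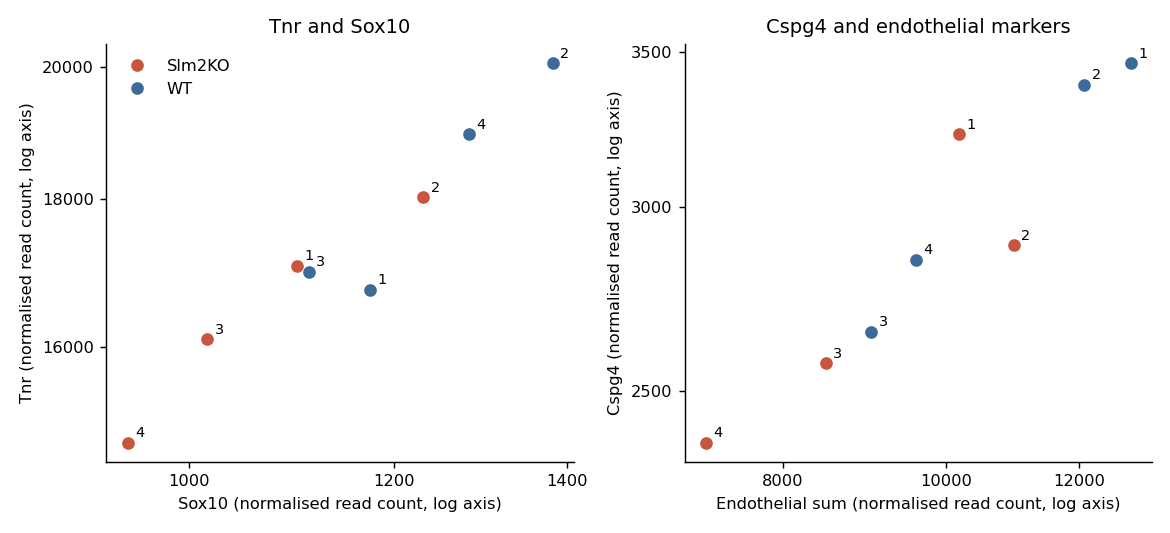
Normalised read counts (log axes) in the 8 libraries, numbered by replicate: Tnr against Sox10 (left) and Cspg4 against the summed level of 6 endothelial markers (right), with Slm2KO and WT libraries coloured. Slm2KO 4 is lowest on both axes in both panels, and the libraries of both labels lie along the same trend.

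Tnr also correlated with neuronal and choroid plexus markers before adjustment. It had r = 0.838 with 6 neuronal markers (exact permutation p = 0.00913, adjusted p = 0.183; rho = 0.762, exact permutation p = 0.0368, adjusted p = 0.368; r = 0.766 without Slm2KO 4 and WT 3, and 0.799 with the number series centred) and r = -0.809 with 8 choroid plexus markers (exact permutation p = 0.0163, adjusted p = 0.217; rho = -0.810, exact permutation p = 0.0218, adjusted p = 0.368). The choroid plexus relation was -0.438 without Slm2KO 4 and WT 2 and so rests on those libraries; with the number series centred it was -0.762. Sox10 gave like values, none of which passed adjustment: r = 0.799 with the neuronal markers (exact permutation p = 0.0147, adjusted p = 0.217; rho = 0.714, exact permutation p = 0.0576, adjusted p = 0.384; r = 0.656 without Slm2KO 4 and WT 3; 0.728 with the number series centred) and r = -0.750 with the choroid plexus markers (exact permutation p = 0.0312, adjusted p = 0.312; rho = -0.762, exact permutation p = 0.0368, adjusted p = 0.368; r = -0.311 without Slm2KO 4 and WT 2; -0.654 with the number series centred). With the endothelial sum Sox10 had r = 0.779 (exact permutation p = 0.0236, adjusted p = 0.270; rho = 0.714, exact permutation p = 0.0576, adjusted p = 0.384; r = 0.813 without Slm2KO 4 and WT 1). All 6 neuronal markers were negative, with a median log2 difference of -0.05 and 0 called, where 53.9% of all features were negative. The choroid plexus sum was 388144 to 2333530 in Slm2KO and 228641 to 1844830 in WT libraries, with 3 of 8 markers positive, 5 negative and 0 called. The meningeal fibroblast sum, of the cell type that shares Pdgfra, was 8551 to 19982 in Slm2KO and 12782 to 30731 in WT libraries, with 8 of 9 markers negative and 0 called; Pdgfra had r = 0.359 with it (exact permutation adjusted p = 0.710; rho = 0.286, adjusted p = 0.801; r = -0.312 without Slm2KO 2 and WT 1; r = 0.905 in the lower and -0.233 in the higher number series). The interneuron sum, of cells that share Sox6 and Tnr, was 74585 to 89272 in Slm2KO and 78083 to 83417 in WT libraries, with 5 of 8 markers positive.

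Other genes of the lineage likewise gave 0 calls. Of 11 further precursor markers 8 were negative and 3 positive, with a median log2 difference of -0.08. The 2 with the smallest p were C1ql1, a secreted C1q-related protein gene, at -0.24 (260 ± 38.7 in Slm2KO and 308 ± 45.6 in WT libraries; SD, n = 4 each) and Cacng4, an AMPA receptor auxiliary subunit gene, at -0.09. Of 7 genes of committed precursors 6 were negative, with a median of -0.06, led by Itpr2, an intracellular calcium channel gene, at -0.15 and Bcas1, a gene of newly myelinating cells, at -0.16. Of 16 mature oligodendrocyte and myelin genes 13 were negative, with a median of -0.07 and 3 at an unadjusted p under 0.05. Fa2h, the hydroxylase of myelin lipid fatty acids, was 2702 ± 78.8 in Slm2KO and 3113 ± 231 in WT libraries (SD, n = 4 each; log2 difference -0.20, limma adjusted p = 1.00), and Gjb1, the connexin of oligodendrocyte gap junctions, was at -0.21. Of 16 further transcription factors 10 were negative and 6 positive, with a median of -0.09 and 3 at an unadjusted p under 0.05. Nkx2-2, a homeodomain factor of differentiating precursors, was 142 ± 22.0 in Slm2KO and 188 ± 22.2 in WT libraries (log2 difference -0.42, limma adjusted p = 1.00), and Sox8, a relative of Sox10, was at -0.22. These counts stand beside the 53.9% of all features that were negative and the 3.52% with an unadjusted p under 0.05. No test of the lists was made.

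The 5 named genes whose pattern over the 8 libraries was most like the mean of the 8 genes were Fam149b (r = 0.976), Tanc1 (0.964), Tnks (0.958), Adam19 (0.956) and Zfp608 (0.955), out of 17587 candidates. Tanc1 encodes a postsynaptic scaffold protein, Tnks the enzyme tankyrase and Adam19 a membrane metalloprotease. The mean centred log2 level of the 8 genes was highest in WT 2 at 0.11 and WT 4 at 0.11 and lowest in Slm2KO 4 at -0.12. These r values are a description over 8 libraries, chosen as the highest among many, and carry no test.

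Reads of other features could reach a few of the genes. The spans of the 8 genes overlap 9 other features of the table, in Pdgfra, Tnr, Sox6 and Gpr17, and 2 of them reached a mean of 10, Lims2 and Gm10530, a transcript within the span of Tnr with 13.1 normalised reads in Slm2KO and 12.2 in WT libraries. In searches of GENCODE transcripts for shared stretches of 30 bases on either strand, Cspg4, Sox6 and Olig2 shared 0 with other genes. Olig1 shared 6.00% of its stretches with 1 gene, Gm15966, which lies opposite its 3′ end, and Gpr17 shared 2.63% with Lims2. Sox10 shared 0.920%, nearly all with Sox9. Pdgfra shared 5.63%, or 561 stretches, of which 398 were shared with Gm42802, an annotated antisense transcript inside its span. Tnr shared 3.38%, or 433 stretches, of which 385 were shared with Gm38039. The shared stretches of Pdgfra and Tnr occurred in 2866 and 2975 other genes in all. The sources used here do not say how such reads were assigned.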

How the data were processed

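RNA from whole hippocampus was sequenced in 8 libraries, 4 labelled Slm2KO and 4 labelled WT. Per the labels' protocols, flash-frozen tissue was extracted with Trizol and libraries were made with the Illumina TruSeq RNA kit. The authors deposited 1 signal value per gene and library, a read count divided by a DESeq size factor, per the submitters' processing notes, which also name FastQC, Picard and SAMtools. The file header gives mm10, used here, although the notes name the human build hg19. The sources used here give no aligner, counter or strand setting. Whole reads were recovered from the steps of the values in each library: 100% of values were whole within 0.001 of a read. The size factor of WT 1, 0.999, was too close to 1 for its step to be told from rounding by itself. Features without a symbol took 15.4% to 18.4% of a library's reads.

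limma 3.58.1 in R 4.3.3 was run on log2(value + 1) with a trended prior and no covariates, for 25667 features with a mean of at least 10, adjusted over all of them with a threshold of 0.05. The procedure was tested on simulated data. Alternatives used edgeR 4.0.16, DESeq2 1.42.0, other pseudocounts, filters, scalings, covariates and left-out libraries. Correlations used exact permutation over all pairings, two-sided, with Benjamini-Hochberg adjustment within each family, computed with Python 3.11.15. Figures used matplotlib 3.10.9. Named genes were the 8 genes, the 2 genes with the smallest p and any called gene of each pathway list, and the 5 genes most correlated with the mean of the 8; other names were chosen after their values were seen. The 8 genes, lists and alternatives were chosen with earlier results of these data known. One list entry, Zfp24, was not analysed here. Splicing was not analysed here.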

Additional observations from a re-analysis of the deposited data

How the results depend on the processing

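Over 22 alternatives 0 of the 8 genes were called. Pdgfra, Cspg4, Tnr, Olig1, Olig2 and Sox10 stayed negative and Sox6 positive in each of them, with log2 differences of -0.21 to -0.12 for Olig1, -0.27 to -0.09 for Sox10, -0.24 to -0.04 for Cspg4 and 0.08 to 0.14 for Sox6. Gpr17, which lay at -0.002, turned positive with quantile normalisation (0.00304), edgeR (1.3e-05), DESeq2 (0.00074), Y-linked reads as a covariate (0.00077), without WT 2 and Slm2KO 4 (0.0048), and without single libraries (-0.038 to 0.036, with 0.0363 without Slm2KO 1, 0.0038 without WT 2 and 0.019 without WT 3). Without both WT 2 and Slm2KO 4, Tnr moved to -0.04, Cspg4 to -0.04, Olig2 to -0.08 and Pdgfra to -0.21; the cause was not tested. Without single libraries Pdgfra ran from -0.17 to -0.08, Cspg4 from -0.24 to -0.09, Tnr from -0.18 to -0.09 and Olig2 from -0.18 to -0.08. Y-linked reads as a covariate moved Cspg4 to -0.10.

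The count of all features called was 1, against 2 with a pseudocount of 10 or log2 Ttr as a covariate, 9 with DESeq2, 0 in limma without the trend, and 0 to 2 when single libraries were left out; the cause was not tested. The replicate number as a block gave 1 call over all features and 0 among the 8 genes. Deviations of same-numbered libraries from their label means had r of 0.124, 0.323, -0.065 and -0.122 for replicates 1 to 4. Slm2KO 1 and Slm2KO 2 correlated best with the WT library of the same number, and Slm2KO 3 and Slm2KO 4 did not. So few values cannot tell whether the numbers pair the libraries, which the labels do not state.

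The correlation of Tnr with Sox10 was 0.975 with TMM factors and 0.952 to 0.993 without single libraries, and kept an adjusted p under 0.05 in each of these. Without WT 2 and Slm2KO 4 it was 0.911 over 6 libraries (exact permutation adjusted p = 0.408), and the number of pairs passing was 0. That of Cspg4 with endothelial markers was 0.887 without them. These checks of correlations were chosen after seeing the data.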

Other observations

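Genes around the precursor that supply its growth signals, matrix and division were measured too, and 0 of them were called. Of 5 PDGF ligand and receptor genes 4 were negative. Pdgfa, the ligand of PDGFRA, held 1684 ± 124 normalised reads in Slm2KO and 1749 ± 41.5 in WT libraries (SD, n = 4 each; limma adjusted p = 1.00). Pdgfrb, the related receptor of pericytes, held 1348 ± 189 in Slm2KO and 1600 ± 348 in WT libraries, with a log2 difference of -0.23. Of 8 tenascin and lectican matrix genes 6 were negative, where 53.9% of all features were. At an unadjusted p under 0.05, which 3.52% of all features had, there were 2. They were Acan, the aggrecan core of perineuronal nets, at a log2 difference of -0.21 (1064 ± 36.4 in Slm2KO and 1237 ± 112 in WT libraries; SD, n = 4 each), and Hapln4, a link protein, at -0.30 (2127 ± 348 in Slm2KO and 2610 ± 276.4 in WT libraries); both had a limma adjusted p of 1.00. Cell cycle genes, which include those of dividing precursors and of neural progenitors, were split at 4 positive and 2 negative of 6, with Cdk1 at 0.15 and Top2a at -0.13.

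Astrocyte markers were negative for 8 of 9 and microglia markers for 6 of 8, with 0 called in both. The astrocyte sum was 250041 to 284098 normalised reads in Slm2KO and 261897 to 292444 in WT libraries. Olig1 had r = 0.839 with that sum over the 8 libraries (exact permutation p = 0.00727, adjusted p = 0.183; Spearman rho = 0.762, exact permutation p = 0.0368, adjusted p = 0.368; r = 0.756 without Slm2KO 4 and WT 1; 0.840 with each series of sample numbers centred), which did not pass adjustment over the 80 relations. Pdgfra had r = 0.729 with the summed mature oligodendrocyte and myelin genes (exact permutation p = 0.0387, adjusted p = 0.344; rho = 0.595, exact permutation p = 0.132, adjusted p = 0.636; r = 0.809 without WT 1 and WT 3). With the series of sample numbers centred that r was 0.546, from 0.165 in the lower to 0.807 in the higher series. The myelin sum was 879402 to 1120960 in Slm2KO and 862636 to 1229830 in WT libraries.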
